A study of Mus musculus with 18 samples.

Results

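The regions described here are the strongest CHD8 peaks within open chromatin of mouse regulatory T cells (Tregs). They were chosen by measured values, as CHIP-seq peaks on chromosomes 1 to 19 whose anti-CHD8 signal averaged at least 190 TPM over 2 WT mice and which shared 1 bp or more with an ATAC-seq peak. TPM here is reads per peak length, scaled to the same total over all peaks of each mouse. Of 6971 CHIP peaks in all, 6788 lay on these chromosomes and 697 met both conditions. They touched 704 of 81800 ATAC peaks.

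CHD8 is an ATP-dependent chromatin remodeler of the chromodomain helicase DNA-binding family. Remodelers of this kind slide or rearrange nucleosomes, and CHD8 is known to occupy promoters of active genes. ATAC-seq measures how readily a transposase cuts DNA, so a strong ATAC peak marks a stretch with few nucleosomes, most often a promoter or an enhancer.

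CHIP-seq with an antibody against CHD8 was carried out on CD4+CD25+ splenic Tregs of 2 WT mice, and ATAC-seq on sorted CD4+YFP+ splenic Tregs of 1 WT and 2 Chd8-/- mice. The study gives a male and a female mouse for the CHIP-seq, a male WT mouse for the ATAC-seq, and a male and a female Chd8-/- mouse. Chd8-/- mice carry the genotype CHD8Flox/FloxFoxp3YFP-Cre, in which a YFP/iCre fusion driven by the Foxp3 locus deletes Chd8 in Tregs, whereas the WT labels read CHD8flox/floxFoxp3YFP-Cre/+ and the methods name C57B6/J mice for the CHIP-seq. The study describes its WT mice as Chd8+/+, whereas YFP+ Tregs of the genotype on the WT labels would lack CHD8. Samples were grouped by their titles, and which of the descriptions holds for the WT ATAC values was not settled here. All samples carry the treatment label Poly IC injection, and the labels give no ages. The titles name 2 CHIP-seq or ATAC-seq samples for each mouse, read here as 2 libraries of that mouse, and the deposited values hold 1 column for them. With 1 WT mouse in the ATAC-seq, an exact permutation test of 2 against 1 mice cannot give a p-value below 0.333, so the ATAC differences are given as values, with limma over all peaks as an alternative only. What is particular to the single WT mouse and what goes with its genotype cannot be told apart in this design, and which Chd8-/- column is the male mouse is not given in the sources used here.

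In WT Tregs the 697 regions carried 85631 of 549862 reads in peaks of mouse 1 (15.6%) and 145009 of 754775 reads in peaks of mouse 2 (19.2%), on 10.6% of the peak length. These reads were worked back from the smallest step that the values of a mouse share, and all 6971 values of each mouse came out whole within the rounding of 0.1 TPM. A region held 37 to 792 reads in mouse 1 (median 111) and 42 to 1586 in mouse 2 (median 183). The regions were 185 to 2516 bp long, with a median of 696 bp, against 644 bp for the 5074 weaker CHIP peaks within open chromatin.

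The anti-CHD8 signal of the regions, which is the value that chose them, ran from 120.1 to 1071.4 TPM in mouse 1 (median 201.3) and from 134.3 to 1104.4 TPM in mouse 2 (median 235.5). Most of the regions stood close to the threshold, since 401 of them averaged under 220 TPM and 15 reached 400 TPM. The 3 regions just inside were chr4:141264977-141266208, chr13:24985090-24985850 and chr10:53472648-53473962, with means of 190.05, 190.05 and 190 TPM. Just outside stood chr3:152101331-152102649 at 189.85 TPM, and chr10:95159373-95159944 and chr11:23256016-23257328 at 189.8 TPM each. Neighbouring regions on either side of the threshold therefore differ by less than the 2 mice do. Both mice reached 190 TPM in 373 of the regions, mouse 1 fell short in 254 and mouse 2 in 70. All positions are in mm39.

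The strongest region was chr4:7391638-7391902, a short peak of 265 bp with 1071.4 TPM in mouse 1 and 837.6 TPM in mouse 2, on 231 and 245 reads. It was followed by chr19:3817646-3818946, with 629.2 and 1104.4 TPM on 666 and 1586 reads. Chr19:59333351-59334684 had 729.7 and 630.2 TPM on 792 and 928 reads. These leading regions were of unlike shape, the first narrow and the others over a kilobase wide. The fourth, chr5:109748740-109748924, was again short, with 697.6 and 558.2 TPM on 105 and 114 reads.

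The next regions were all stronger in mouse 2. Chr2:144112192-144112970 had 355.0 TPM in mouse 1 and 626.8 TPM in mouse 2, and a region on chromosome 18 had 395.1 and 594.4 TPM. Chr8:110505064-110505841 had 404.5 and 572.9 TPM, and chr10:80003550-80004136 had 345.5 and 618.9 TPM. The last of the 10 strongest were chr11:75623404-75624466, with 363.1 and 589.7 TPM, and chr17:47167574-47168686, with 377.7 and 542.9 TPM.

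The lean towards mouse 2 held across the set. The signal was higher in mouse 2 in 544 of the 697 regions (78.0%), against 44.8% of the weaker CHIP peaks within open chromatin, and the median log2 ratio of mouse 2 to mouse 1 was 0.28 against -0.04. Since the mean of the mice set the threshold, these shares are a description of the chosen regions and were not tested.

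**Figure D1:**
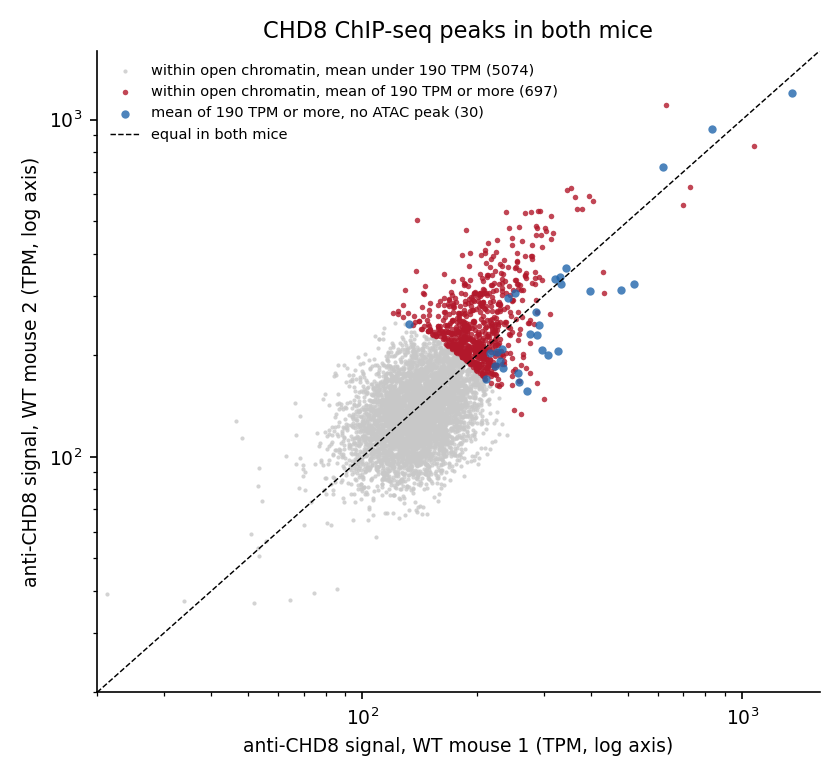
Anti-CHD8 signal in TPM of CHIP peaks on chromosomes 1 to 19 in WT mouse 1 (x axis) and WT mouse 2 (y axis), both on log axes, with 1 point per peak. The 697 regions (red) lie mostly above the dashed line of equal signal, 544 of them being higher in mouse 2, while the 5074 weaker peaks within open chromatin (grey) spread on both sides and 22 of the 30 equally strong peaks without an ATAC peak (blue) are higher in mouse 1. Peaks under 20 TPM in either mouse are not drawn.

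At the upper end of the ratio stood chr9:123290901-123291226, with 139.5 TPM in mouse 1 and 503.0 TPM in mouse 2, a ratio of 3.61 on 37 and 181 reads. Chr16:32876669-32877324 followed with 138.7 and 356.3 TPM, and chr11:80273868-80274234 with 187.6 and 471.5 TPM. Chr11:86648155-86648992 had 129.1 and 312.4 TPM, and chr13:103910379-103911198 had 238.3 and 531.4 TPM. These 5 were picked as one extreme of the ratio, which is given as a description.

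The opposite end held chr1:191049937-191050346, with 299.8 TPM in mouse 1 and 148.0 TPM in mouse 2, a ratio of 0.494 on 100 and 67 reads. Chr7:24776650-24777020 had 261.7 and 134.3 TPM, and chr12:113149406-113149812 had 250.7 and 138.0 TPM. Chr8:11606218-11606848 had 288.3 and 165.1 TPM, and chr11:17903434-17903923 had 275.9 and 177.5 TPM. The 153 regions with the higher signal in mouse 1 were shorter, with a median of 592 bp against 711.5 bp for the 544 others.

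Short peaks were more frequent among the strong signals, although the regions had the larger median length, 696 bp against 644 bp for the weaker peaks within open chromatin. Under 320 bp, a limit set after the lengths were seen, lay 26 of the 697 regions (3.73%), 0.355% of the weaker peaks within open chromatin, and 19 of the 30 peaks that passed 190 TPM without an ATAC peak. Of the 26 short regions, 15 were higher in mouse 1, against 20.6% of the 671 longer ones. The strongest CHIP peak of all was among those 30, on chromosome 18, with 1349.6 and 1200.9 TPM over 347 bp. The next of them, chr11:3140618-3140800, had 832.9 and 935.6 TPM. IgG values were not analysed here, so none of these signals is set against a control antibody.

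The regions sat well inside their ATAC peaks. An ATAC peak covered the whole region in 586 of 697 cases (84.1%), against 75.2% of the weaker CHIP peaks within open chromatin, and the ATAC peak was the longer of the pair in 661. The centres of the region and of its strongest ATAC peak lay a median of 88 bp apart, against 91 bp for the weaker peaks. A single ATAC peak was touched by 681 regions, 2 by 15 regions, and 4 by chr9:62250663-62251730. The overlap itself was part of the choice, but how far and how centrally the peaks overlapped was not.

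All 19 chromosomes held such regions, from 18 on chromosome 14 to 68 on chromosome 11. Taken as a share of the CHIP peaks within open chromatin of each chromosome, they made up 8.73% on chromosome 12 and 15.6% on chromosome 18, around 12.1% over all. Neighbouring regions were a median of 1290.0 kb apart. Within 1 kb of each other stood 18 of 678 neighbouring pairs, among them chr11:106678384-106678804 and its neighbours at chr11:106678893-106679611 and chr11:106679747-106680332, which form a run of 3.

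Open chromatin at these regions was strong in every mouse. The 704 ATAC peaks had a median of 33.7 TPM in the WT mouse, 30.6 TPM in Chd8-/- mouse 1 and 31.9 TPM in Chd8-/- mouse 2. At the 5331 ATAC peaks that touched other CHIP peaks the medians were 26.7, 25.4 and 25.2 TPM, and at the 75765 ATAC peaks without a CHIP peak 7.8, 8.2 and 7.8 TPM. The ATAC peaks at the regions were also long, with a median of 1175.5 bp against 1039.0 and 305.0 bp. When all ATAC peaks were ranked by mean signal, 494 of the 704 (70.2%) fell in the top decile, against 47.3% of those at other CHIP peaks, and 7 fell in the lower 5 deciles. The study gives an average sequencing depth for its ATAC-seq samples, but the depth behind each column of ATAC values is unknown.

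**Figure D2:**
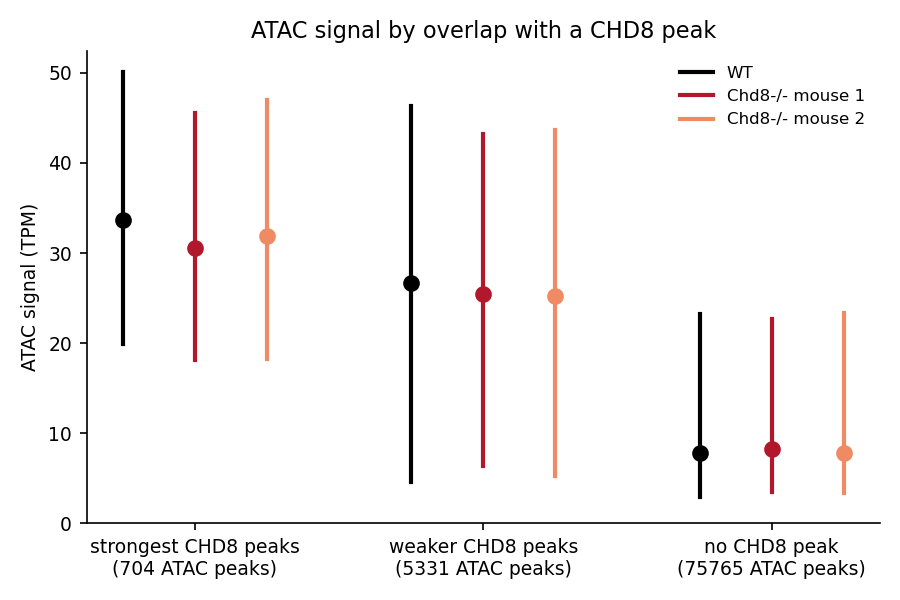
ATAC signal in TPM (y axis, from 0) of ATAC peaks at the strongest CHD8 peaks, at weaker CHD8 peaks and without a CHD8 peak, by mouse. Points are medians over peaks and lines run from the 10th to the 90th percentile over peaks, not over mice. At the strongest CHD8 peaks the WT median of 33.7 TPM stands above 30.6 and 31.9 TPM in the Chd8-/- mice, while without a CHD8 peak the medians are 7.8, 8.2 and 7.8 TPM.

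The highest WT ATAC signal belonged to chr4:156390253-156391203, where the ATAC peak chr4:156389867-156391760 had 90.4 TPM in the WT mouse, and 81.0 and 85.9 TPM in the Chd8-/- mice. At chr8:84793400-84794058 the values were 80.6, 72.8 and 73.8 TPM. At chr9:123290901-123291226, the region with the largest ratio between the CHIP mice, they were 79.3, 58.3 and 89.2 TPM, so that the Chd8-/- mice lay on either side of WT. Chr1:86454485-86455113 had 74.9, 62.5 and 68.2 TPM, and chr3:135144189-135145361 had 73.0, 63.2 and 64.9 TPM. In 4 of these 5 the WT value lay above both others. They were picked by a high WT value, which by itself favours this order, so the count is a description only.

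The lowest WT signal was that of chr4:147209238-147209679, at 1.3 TPM in WT and 2.6 and 3.4 TPM in the Chd8-/- mice. It was followed by chr13:120059088-120059330, with 3.0, 9.2 and 5.3 TPM. Chr14:14182897-14183179 had 4.0, 2.1 and 3.9 TPM, chr12:99611233-99611624 had 4.4, 3.9 and 5.7 TPM, and chr5:67584354-67585136 had 5.2, 8.4 and 5.2 TPM. Both Chd8-/- mice lay above WT at the first pair and below it at the region on chromosome 14, there with 3.9 against 4.0 TPM in 1 mouse. All 5 were picked by a low WT value, which by itself favours a WT value below the others, so this order is a description only.

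Across the set, the accessible signal was slightly lower in Chd8-/- Tregs. The WT value lay above both Chd8-/- values at 518 of 704 ATAC peaks (73.6%), whereas this held for 36.6% of all ATAC peaks, for 53.8% of those at other CHIP peaks and for 35.0% of those without a CHIP peak. The WT value lay below both at 104 of the 704 (14.8%), against 40.6% of all ATAC peaks. The median log2 change, taken as the mean of log2(TPM + 0.84) of the Chd8-/- mice minus that of the WT mouse, was -0.12 at the regions, -0.05 at other CHIP peaks and 0.03 without a CHIP peak. Both Chd8-/- mice are set against the same WT mouse, and on their own gave medians of -0.13 and -0.10 at the regions against 0.02 and 0.01 over all ATAC peaks. In bulk cells, fewer cells with an open site and less opening per cell cannot be told apart.

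The lower signal at the regions held in direction under each scaling, but its size did not. Since TPM sums to the same total in each mouse, each change is relative to the other peaks. With the median over all ATAC peaks set to 0 the WT value lay above both others at 77.6% of the 704 peaks, against 39.7% of all peaks. After quantile normalization, which gives all 3 mice the same distribution of values, it was 58.5% against 38.4%, with a median log2 change of -0.06 at the regions and -0.004 over all peaks. The change was larger than the distance between the Chd8-/- mice, with both below WT, at 462 of the 704 peaks (65.6%), a pattern found at 28.7% of all ATAC peaks. It was so with both above WT at 75 (10.7%), against 33.3% of all. The median SD between the Chd8-/- mice at the 704 peaks was 0.04 on the log2 scale.

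Strong ATAC peaks as a whole were lower in the Chd8-/- mice, so peaks of like signal were compared. In the top decile of ATAC signal the WT value lay above both others at 74.9% of 494 peaks at the regions, 70.0% of 2521 at other CHIP peaks and 54.8% of 5163 without a CHIP peak, with medians of -0.10, -0.09 and -0.07. The median SD between the Chd8-/- mice was 0.037, 0.034 and 0.058 in the same order, and the median length 1191.5, 1139.0 and 712.0 bp. Peaks without a CHIP peak were thus not alike in spread, which the shares depend on. In decile 9 the shares were 73.8% of 149, 59.5% of 1159 and 41.0% of 6843, and in decile 8 they were 68.4% of 38, 47.4% of 487 and 36.5% of 7676. The regions stood highest in each of these deciles, and the distance to the weaker CHIP peaks was smallest in the top one. After quantile normalization the shares in the top decile were 53.6%, 44.0% and 37.0%. Lower deciles held 10 or fewer peaks at the regions each.

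**Figure D3:**
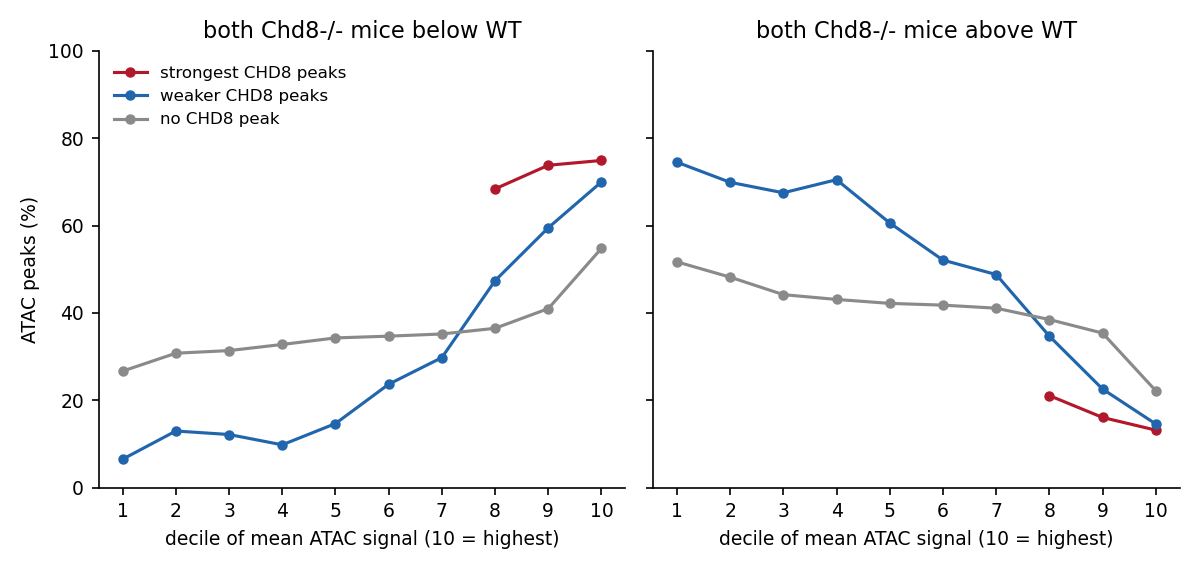
Share of ATAC peaks in percent (y axis) at which both Chd8-/- mice lie below the WT mouse (left) or above it (right), by decile of mean ATAC signal (x axis), for values as deposited. In deciles 8 to 10 the strongest CHD8 peaks (red) have shares below WT of 68.4, 73.8 and 74.9%, above those of weaker CHD8 peaks (blue) and of peaks without CHD8 (grey), and sets with under 20 peaks in a decile are not drawn.

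Among the regions, the ATAC change was more negative where the anti-CHD8 signal was stronger. The median log2 change of the strongest ATAC peak was -0.08 for the 188 regions from 190 to 200 TPM, -0.12 for 213 from 200 to 220 TPM, -0.12 for 172 from 220 to 260 TPM and -0.15 for 124 from 260 TPM upwards. The share with WT above both Chd8-/- mice was 67.6, 72.3, 79.1 and 79.0% in the same order. In the top decile of ATAC signal the medians were -0.08, -0.11, -0.12 and -0.13, while weaker CHIP peaks of that decile lay between -0.08 and -0.09 in each class of signal. WT ATAC signal differed little between the 4 classes of regions, with medians of 33.5, 34.0, 34.6 and 33.7 TPM. The 15 regions of 400 TPM or more, the thin upper end of the last class, had a median of -0.10. The classes were set after the values were seen and carry no test.

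**Figure D4:**
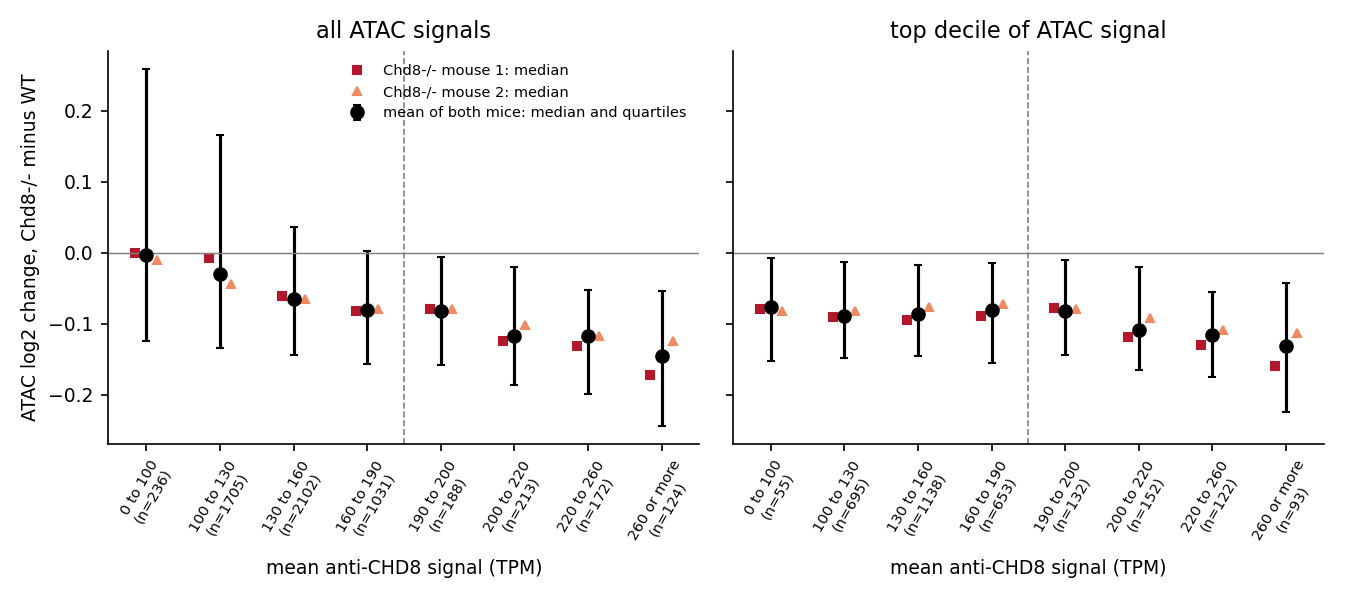
ATAC log2 change, Chd8-/- minus WT (y axis), by mean anti-CHD8 signal in TPM (x axis), for all CHIP peaks within open chromatin (left) and those whose ATAC peak is in the top decile of signal (right). Black points are medians with quartiles over peaks, coloured points are the medians of each Chd8-/- mouse, and the dashed line marks 190 TPM. Right of the line the medians of all peaks go from -0.08 to -0.15.

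Nearby ATAC peaks had a smaller median change and a lower share below WT. Among 1284 ATAC peaks that lay within 10 kb of a region and touched no CHIP peak, the median log2 change was -0.01 and the WT value lay above both others at 40.5%. Within 10 kb of weaker CHIP peaks these were 0.02 and 35.4% of 7418 peaks. These neighbours were weaker sites, with a median of 14.6 TPM in WT. Among the 217 neighbours of the regions in the top decile of ATAC signal the median was -0.07 and the share 50.7%, against -0.10 and 74.9% at the regions in that decile. These neighbours were shorter, with a median of 379 bp against 1191.5 bp. Their Chd8-/- mice differed more, with a median SD of 0.078 against 0.037 on the log2 scale. The share depends on this spread, so a lower share is not by itself a smaller change. The 788 neighbours of weaker CHIP peaks in that decile had -0.06 and 52.7%, so that the small difference in share between the kinds of neighbours was turned there.

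Large changes were rare. A log2 change of 0.4, the value of the study's cutoff, served as the cutoff here too. Over all ATAC peaks the study reports fewer peaks up and fewer down than the measure used here gave, so the calls are not the same. The cutoff was reached by 5 of the 704 peaks upwards (0.71%) and 14 downwards (1.99%), against 17.3% and 9.94% of all ATAC peaks. Other CHIP peaks had 7.63% and 1.58%. Such changes were rare at strong ATAC peaks in general, with 0 and 1.21% in the top decile at the regions, 0.278% and 0.357% at other CHIP peaks and 2.03% and 1.98% without a CHIP peak. The cutoff was passed in both Chd8-/- mice at once by 3 peaks upwards and 11 downwards, against 12.7% and 6.37% of all ATAC peaks. The change was under 0.2 in size at 508 of the 704 (72.2%), against 46.8% of all. Limma, run over all ATAC peaks with the single WT mouse assumed to vary like the Chd8-/- mice, called 0 of the 704 in either direction at an adjusted p-value of 0.05 (0% of all peaks in either direction). At an unadjusted p-value of 0.05 it gave 8 higher (1.14%) and 116 lower (16.5%), against 10.8% and 6.47% of all ATAC peaks.

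**Figure D5:**
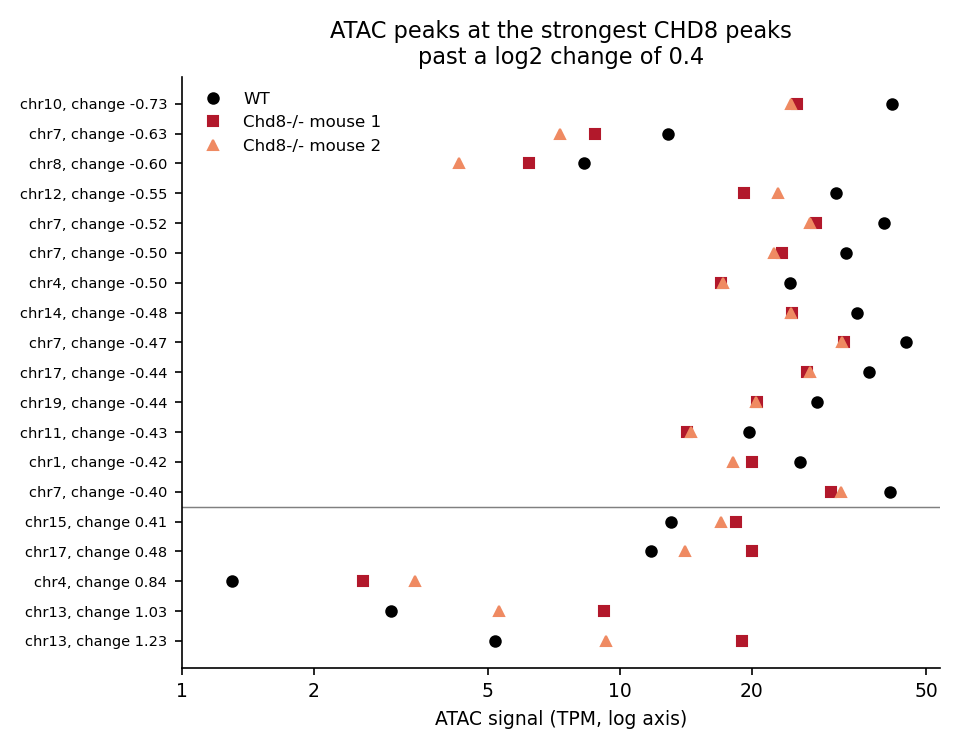
ATAC signal in TPM (x axis, log) in the WT mouse (black) and both Chd8-/- mice (red, orange) for the 19 ATAC peaks at the strongest CHD8 peaks whose log2 change reached 0.4 in size, 1 row per peak with its chromosome and change. The 14 upper rows are lower and the 5 lower rows higher in Chd8-/- Tregs, and only rows on chromosomes 4 and 13 pass a change of 0.5 upwards.

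The largest loss was at the narrow ATAC peak chr10:79824379-79824480, within the region chr10:79824219-79824690, which had 41.9 TPM in WT and 25.4 and 24.6 TPM in the Chd8-/- mice, a log2 change of -0.73. At chr7:5054250-5055192 the values were 12.9, 8.8 and 7.3 TPM, a change of -0.63. At chr12:80179297-80179902 they were 31.2, 19.2 and 23.0 TPM, a change of -0.55. In all 3 the Chd8-/- mice lay closer to each other than to WT.

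Chromosome 7 held a further 3 of the losses that passed in each mouse. They were chr7:127111007-127112523, with 40.1 TPM in WT and 28.1 and 27.2 TPM in the Chd8-/- mice, chr7:139717389-139718165, with 32.9, 23.5 and 22.5 TPM, and chr7:128062704-128063929, with 45.0, 32.5 and 32.2 TPM. Chr4:156027959-156028700 had 24.5, 17.0 and 17.2 TPM, and its region was also one of the 15 that reached 400 TPM of anti-CHD8 signal, at 289.5 TPM in mouse 1 and 534.9 TPM in mouse 2. The remaining ones named by the rule were chr14:61919555-61920522, with 34.7, 24.7 and 24.6 TPM, chr17:35460259-35461481, with 37.0, 26.8 and 27.2 TPM, and chr19:5156498-5157373, with 28.2, 20.6 and 20.5 TPM. All of these lay between -0.44 and -0.52 on the log2 scale.

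The 3 gains that passed in each mouse were at weakly open sites. The ATAC peaks chr13:120057959-120058069 and chr13:120059175-120059484 lie about a kilobase apart under a pair of short, strong CHD8 regions of 232 and 243 bp. The first had 5.2 TPM in WT and 19 and 9.3 TPM in the Chd8-/- mice, a log2 change of 1.23, and the second 3.0, 9.2 and 5.3 TPM, a change of 1.03. Chd8-/- mouse 1 lay above Chd8-/- mouse 2 at both, by more on the log2 scale than mouse 2 lay above WT. The third, chr4:147209243-147209529, had 1.3, 2.6 and 3.4 TPM, a change of 0.84. At such low values the size depends on the processing. With a pseudocount of 8.4 TPM the 3 changes were 0.695, 0.446 and 0.232 in the same order. After quantile normalization they were 1.189, 0.881 and 0.47.

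The 10 strongest regions by anti-CHD8 signal were not among those with large changes. Large changes did occur at other strong regions. The region at the ATAC peak chr4:156027959-156028700, with a mean of 412.2 TPM, had a log2 change of -0.498. The region chr13:120059088-120059330, with a mean of 392.05 TPM, had a log2 change of 1.032. At chr4:7391638-7391902 the ATAC peak had 61.4 TPM in WT and 60.5 and 83.7 TPM in the Chd8-/- mice, at chr19:3817646-3818946 it had 30.2, 27.0 and 29.1 TPM, and at chr19:59333351-59334684 it had 34.3, 33.9 and 34.4 TPM. At their strongest ATAC peak, the 10 strongest regions ranged from -0.21 at chr11:75623404-75624466 to 0.21 at chr4:7391638-7391902 in log2 change. A second, weaker ATAC peak at chr17:47167574-47168686 had 21.6 TPM in WT and 17.0 and 18.2 TPM in the Chd8-/- mice, a change of -0.28.

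A published list of the study that pairs CHIP peaks with genes of the PI3K-Akt-mTOR pathway holds 24 peaks, of which 4 are among the 697 regions. The genes of interest were chosen from that list after their values had been seen. The pairing reaches far, since the 11 peaks paired with Hspa5 span 908.0 kb and the 4 paired with Cdkn1a 340.0 kb, so it does not place a region at a promoter. The region paired with Cdkn1a, which encodes the cell cycle inhibitor p21, was chr17:29251196-29252004, with 179.3 and 217.2 TPM of anti-CHD8 signal. Its ATAC peak had 31.9 TPM in WT and 27.0 and 27.1 TPM in the Chd8-/- mice, a log2 change of -0.23. Over the 4 peaks paired with Cdkn1a the changes ran from -0.32 to -0.04. The study, in contrast, reports higher accessibility at CHD8 binding sites of Cdkn1a in Chd8-/- Tregs. Whether it refers to other Cdkn1a peaks was not settled here. It reports the same for Bhlhe40, whose peak in the list averaged 129.0 TPM and is not among the regions. There the ATAC peak had 32.1 TPM in WT and 36.4 and 39.7 TPM in the Chd8-/- mice, a log2 change of 0.24. The region paired with Hspa5, which encodes the endoplasmic reticulum chaperone BiP, was chr2:35090316-35091131, with 149.1 and 236.5 TPM, and its ATAC peak had 37.4, 32.1 and 35.1 TPM.

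Of the pair of regions assigned to Fgl2, a fibrinogen-like protein secreted by Tregs, chr5:21906231-21906883 had 124.2 and 270.5 TPM of anti-CHD8 signal and ATAC values of 56.2, 51.2 and 50.1 TPM. The other, chr5:21989932-21990372, had 172.8 and 215.7 TPM and ATAC values of 29.8, 30.6 and 27.6 TPM, with the Chd8-/- mice on either side of WT. None of these 4 regions reached the cutoff of 0.4.

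RNA-seq covered 2 WT and 2 Chd8-/- mice, by the study a male and a female of each. Cdkn1a was at 0.2 and 0.3 TPM in WT and at 190.7 and 150.1 TPM in Chd8-/- Tregs. Fgl2 stood at 23.6 and 26.1 TPM against 52.3 and 50.8 TPM, and Hspa5 at 255.6 and 246.9 TPM against 462 and 413.1 TPM. These 3 genes were chosen after their values had been seen, so their levels are a description only. With limma on log2(TPM + 1) over 15242 genes (Benjamini-Hochberg adjustment), the differences were 7.09 ± 0.31 (SE) with an adjusted p-value of 0.0807 for Cdkn1a, 1.03 ± 0.22 with 0.403 for Fgl2 and 0.80 ± 0.16 with 0.403 for Hspa5. No gene passed 0.05 (0% of those tested, and 1555 at an unadjusted p-value of 0.05), whereas 2 of 11353 genes did with a filter at a mean of 5 TPM and 415 of 35869 without a filter. For Cdkn1a the adjusted p-value was 0.0347 with the filter at a mean of 5 TPM, 0.00833 without one, and otherwise 0.0516 to 0.971.

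In the same libraries Chd8 was at 24.7 and 27.6 TPM in WT and at 14.9 and 11.4 TPM in Chd8-/- Tregs. Foxp3, the transcription factor that defines Tregs, was between 202.8 and 232.1 TPM in all 4, and 7 of 7 Treg markers were at 1 TPM or more in each. The summed level of 10 myeloid markers was 1499.1 TPM in Chd8-/- replicate 2 against 33.5 to 155.1 TPM in the others, and that of 10 B cell markers 147.8 against 37 to 51.7 TPM. That of 10 CD8 and NK markers was 64.4 to 98.5 TPM in the 4 libraries. No marker was at 0 in all 4, and the part of other cells in the RNA values above was not tested.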

How the data were processed

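The authors trimmed ATAC-seq and CHIP-seq reads, mapped them with HISAT2 to mm39, discarded duplicates (sambamba) and used MACS2 2.2.7.1 for peaks, then combined peaks of duplicates at 50% overlap and counted reads under their union with featureCounts 1.5.3. RNA reads were aligned with STAR 2.6.1e and counted with featureCounts 1.6.2. The deposited values are TPM rounded to 0.1. On chromosomes that end earlier in GRCm38, 39 ATAC peaks lay beyond that end, so genes and sequences of the GRCm38 reference were not joined to the peaks and RNA of genes starting in the regions is not analysed here.

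CHIP values times peak length (end minus start) gave whole reads in both mice, which makes the starts count from 0. Positions are given counted from 1. Limma 3.58.1 in R 4.3.3 used a mean-variance trend. Python 3.11.15, scipy 1.17.1 and matplotlib 3.10.9 served for the rest. The ATAC pseudocount was 0.84 TPM, or 0.1 of the median.

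The regions and gene lists were chosen with earlier results of these data known. Regions named are the 10 strongest, 3 on either side of the threshold, 5 at each end of the ratio between mice and of WT ATAC signal, and up to 10 per direction past 0.4 in each Chd8-/- mouse. Alternatives were another pseudocount, 2 scalings, a filter on signal, stricter cutoffs and overlaps, 190 TPM in each mouse, and mice left out.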

Additional observations from a re-analysis of the deposited data

How the results depend on the processing

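The median log2 change at the 704 ATAC peaks was -0.093 with the pseudocount at the median ATAC value, 8.4 TPM, and -0.055 after quantile normalization, and stayed between -0.129 and -0.101 under the other alternatives, -0.125 and -0.101 with each Chd8-/- mouse left out. The 5 peaks higher and 14 lower in Chd8-/- Tregs became 2 and 3 with that pseudocount, 2 and 0 at a log2 cutoff of 1, and 0 and 0 with limma. Only peaks at or above the median signal gave 3 higher, and the cutoff in each Chd8-/- mouse gave 3 higher. Leaving out each mouse gave 6 higher in both cases, and 18 lower without Chd8-/- mouse 1 and 27 without Chd8-/- mouse 2. Asking for 190 TPM in each CHIP mouse left 373 regions with 381 ATAC peaks, of which 5 were lower and 275 lay below WT in both Chd8-/- mice. This alternative by its construction has fewer regions, and for the other shifts the cause was not tested. The scalings of the share below WT, and the alternatives for Cdkn1a, Fgl2, Hspa5 and Chd8, were added after the data were seen.

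Deviations of RNA libraries with the same replicate number were not correlated (-0.01 over 15242 genes). This cannot show whether such libraries share a sex, and sex was not used as a block. With the replicate number as a block in limma, Cdkn1a changed by 7.09, Fgl2 by 1.03, Hspa5 by 0.80 and Chd8 by -0.95 on the log2 scale. The adjusted p-values were 0.552, 0.552, 0.552 and 0.585. No paired analysis was possible for the ATAC-seq because 1 WT mouse stands against 2 Chd8-/- mice. The RNA results planned for genes starting in the regions were not run.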
